A study of Rattus norvegicus with 176 samples.

Results

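Liver sections tagged TU were set against the untagged liver section of the same animal, called own liver here, in rats given both DEN and clofibric acid. The sample titles write the tag as TUM and do not spell it out, and the comparison is taken here as tumour against surrounding liver only as far as that tag carries it. The members were every TU and every untagged section sharing a rat number in the groups DEN-Clo:9m (rats 4103, 4104 and 4105) and DEN-Clo:12m (rats 4106, 4107 and 4109). They came to 12 sections of 6 rats, beside 164 other sections in a series of 148 rats in all. A further DEN-Clo rat, 4111, carries rev in its title, which the labels do not explain, and entered no test of these 6 rats except as an alternative.

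All animals were F344 rats, and total RNA of each section was hybridised to 1 Affymetrix array. DEN is the field's abbreviation for diethylnitrosamine, and Clo or CA stands for clofibric acid in the labels. The groups used were 6 TU sections of DEN-Clo rats at 9 or 12 months, the 6 own livers, 2 sections tagged PERI from rats 4104 and 4109, and the untagged livers of 4 DEN-Clo group mates from which no TU section was used. Besides these there were 22 TU and untagged sections of 8 Clo rats with the drug alone at 12 months, 18 months or a time written 18 without a unit, and livers of 10 DEN rats and of 10 Ctrl rats at 9 and 12 months. The titles name 5000 ppm CA for every group, Ctrl and DEN rats included, so the group names and not the titled dose were used to tell groups apart. Sex, age at start, the DEN dose and the way in which a section was cut were not given in the sources used here.

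Clofibric acid is a fibrate that activates PPARalpha, the nuclear receptor that switches on peroxisomal and mitochondrial fatty acid oxidation, fatty acid omega-hydroxylation by the Cyp4a enzymes and lipid droplet and acyl-CoA metabolism in rodent liver. Diethylnitrosamine is an alkylating carcinogen that initiates liver tumours in rats, and long exposure to PPARalpha activators promotes or causes such tumours in rodents. Histochemical work on rat liver tumours raised by peroxisome proliferators has described them as poor in placental glutathione S-transferase (Gstp1) and gamma-glutamyltransferase (Ggt1), the markers that label most chemically induced rat liver foci.

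Signals are the deposited array intensities scaled to a common array median of 99.35. The 12 array medians before scaling were 51.3 to 128.55 in TU sections and 45 to 139.1 in own liver, with both low values in rat 4109. A log2 difference is the mean over 6 rats of TU minus own liver, on the log2 scale of the scaled signal plus 25, given ± its standard error, so changes of genes with signals near 25 are understated. Log2 values correlated at r of 0.919 to 0.970 between TU sections, at 0.958 to 0.981 between own livers and at 0.889 to 0.950 between the TU section and own liver of a rat. The Clo rat 4137 went against its labels. Of the genes that were higher in TU sections of DEN-Clo rats, 3.22% were higher in its section labelled TU, against 70.8% to 92.4% in the other 7 Clo rats. Results that use Clo rats are therefore given with and without it. The B suffix, unexplained in the labels, stands on both sections of rats 4103 and 4105, on the own liver alone of rat 4104 and on no section at 12 months.

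TU sections differed from own liver in a large part of the measured genes, with more losses than gains under the main scaling. After limma with rat as a block, 932 of 7737 genes (12%) rose and 1277 (16.5%) fell at an adjusted p under 0.05. Of the genes that rose, 720 were higher in 6 of 6 rats, and of those that fell, 981 were lower in 6 of 6 rats. In probe sets, 1163 of 10576 were higher and 1774 lower, and 182 and 330 of these also passed a 2-fold difference. After quantile normalization the split was 1605 higher and 1620 lower, so the excess of losses depends on the scaling. The shares of 12% raised and 16.5% lowered are those against which each list count is read. Within the 2 rats with the B suffix on both sections 1466 probe sets passed, and within the 3 rats without it 670 passed. The tissue is bulk, so fewer cells of a type and less RNA per cell cannot be told apart in any of these values.

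The 6 rats did not contribute equally. The median difference of the genes that rose was 0.63, 0.84 and 0.76 in rats 4103, 4104 and 4105 and 0.82, 0.41 and 0.54 in rats 4106, 4107 and 4109. The median difference of the genes that fell was -0.77, -0.84 and -0.48 in rats 4103, 4104 and 4105 and -0.67, -0.92 and -0.38 in rats 4106, 4107 and 4109. Rat 4107 thus had the smallest gains and the largest losses, and rat 4109 had the smallest losses. Across all tested probe sets the differences of any 2 rats correlated at r of 0.30 to 0.76, with a median of 0.52.

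**Figure D1:**
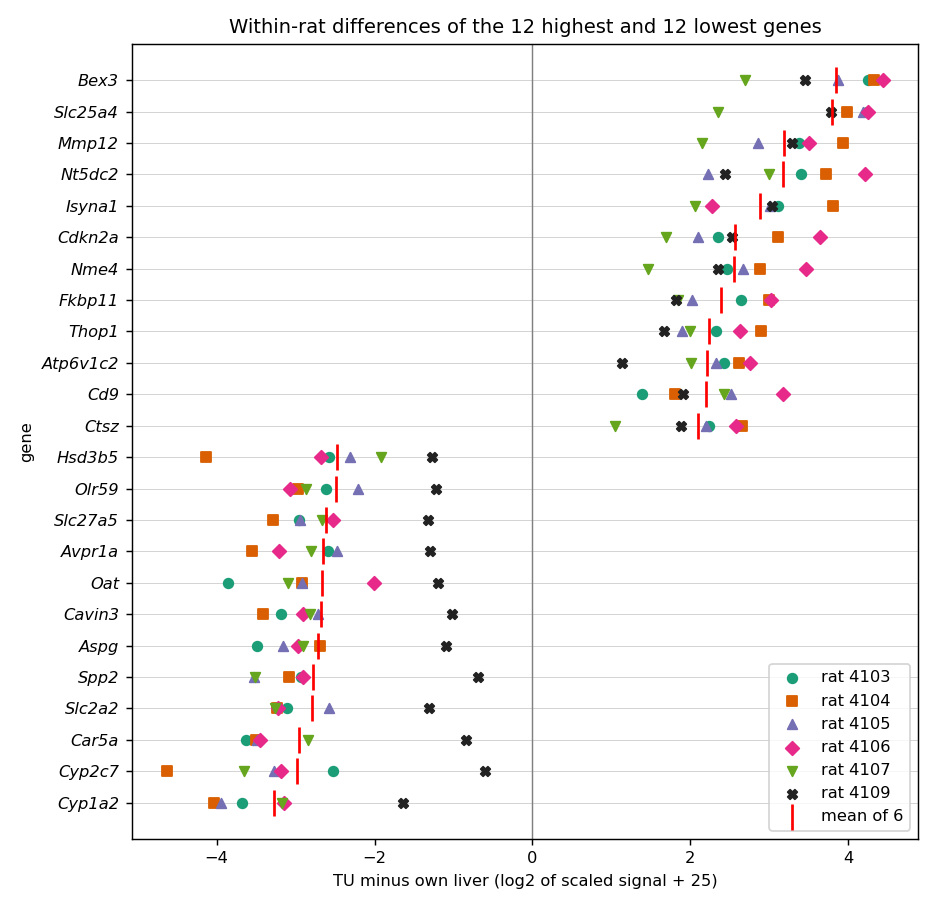
TU minus own liver on the log2 scale of scaled signal plus 25 for the 12 genes with the highest and the 12 with the lowest mean difference among those called with the same sign in 6 of 6 rats; each marker is 1 rat and the red bar is the mean of 6. Rat 4107 has the smallest gain of Bex3, Slc25a4 and Mmp12, and rat 4109 has the smallest loss of all 12 lower genes.

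Bex3, a small adaptor that binds the p75 neurotrophin receptor, stood first by log2 difference. Its signal ranged from 295 to 907 (median 654) in TU sections and from 13.2 to 24.5 (median 19.6) in own liver (log2 difference of 3.84 ± 0.20, adjusted p = 1.46e-07). Own liver signals of Bex3 lay below the offset of 25 in all 6 rats, and the difference was 4.61 with an offset of 6 and 2.59 with one of 99, against 3.93 and 3.39 for Slc25a4, which stood first with the offset of 99. Slc25a4, the ADP/ATP carrier of the inner mitochondrial membrane that is typical of heart and muscle, lay at 1668 to 3814 in TU sections, with a median of 3096, against 136 to 307 in own liver, with a median of 175.64 (log2 difference of 3.80 ± 0.21, adjusted p = 2.71e-07). For both genes the lowest TU section stood far above the highest own liver, and that lowest TU section was rat 4107. Mmp12, the macrophage metalloelastase, had a median of 952 in TU sections (lowest 554, highest 1456), against 80.0 in own liver (lowest 56.5, highest 106) (log2 difference of 3.19 ± 0.19, adjusted p = 2.99e-07). Nt5dc2, a 5'-nucleotidase domain protein, ranged from 369 to 1294 (median 606) in TU sections and from 40.4 to 72.6 (median 46.6) in own liver (log2 difference of 3.17 ± 0.21, adjusted p = 1.56e-06). TU sections and own liver did not overlap for either gene.

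Cdkn2a, which encodes the cell cycle inhibitors p16INK4a and Arf, lay at 87.5 to 355 in TU sections, with a median of 156, against 1.24 to 36.9 in own liver, with a median of 2.91 (log2 difference of 2.57 ± 0.24, adjusted p = 1.06e-05). Its own liver signals lay below the offset of 25 in 5 rats and at 36.9 in rat 4107, so that the difference depends on the offset, being 3.87 with an offset of 6 and 1.32 with one of 99. Isyna1, which makes inositol 3-phosphate, had a median of 244 in TU sections (lowest 105, highest 437), against 7.95 in own liver (lowest 6.34, highest 25.8) (log2 difference of 2.88 ± 0.21, adjusted p = 2.42e-06). Nme4, a mitochondrial nucleoside diphosphate kinase, rose by 2.55 ± 0.23 and Atp6v1c2, a subunit of the vacuolar proton pump, by 2.21 ± 0.21. All 4 had own liver signals of at most 36.9, and every TU section lay above all of them.

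Of the remaining genes among the 12 highest, Fkbp11 and Ctsz were well measured in own liver too. Fkbp11, a prolyl isomerase of the endoplasmic reticulum, ranged from 1154 to 2478 (median 1569) in TU sections and from 241 to 308 (median 295) in own liver (log2 difference of 2.40 ± 0.18, adjusted p = 3.2e-06). Ctsz, a lysosomal cathepsin, lay at 720.2 to 2199 in TU sections, with a median of 1606, against 276 to 416 in own liver, with a median of 324 (log2 difference of 2.10 ± 0.19, adjusted p = 8.27e-06). Thop1, a cytosolic metallopeptidase of short peptides, rose by 2.24 ± 0.16 and Cd9, a tetraspanin of the cell surface, by 2.20 ± 0.21. None of the 12 genes had a TU section within the range of own liver. The 12 highest and 12 lowest genes, and list members with the smallest p, were chosen on these same values. That choice favours groups that lie apart, and the share without overlap over all genes was not counted.

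The largest loss was that of Cyp1a2, the cytochrome P450 of caffeine and aromatic amine oxidation. Its signal ranged from 164 to 1125 (median 196) in TU sections and from 1907 to 3565 (median 2802) in own liver (log2 difference of -3.27 ± 0.24, adjusted p = 3.2e-06). The TU section of rat 4109 was the highest at 1125, and the other 5 lay between 164 and 201. Cyp2c7, a cytochrome P450 of retinoid and steroid oxidation, had a median of 751 in TU sections (lowest 118, highest 6884), against 6804 in own liver (lowest 3495, highest 10468) (log2 difference of -2.98 ± 0.35, adjusted p = 4.19e-05). It was the only 1 of the 12 whose groups overlapped, again through rat 4109, and near-identical Cyp2c genes may share its probe signal.

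The other 10 of the 12 lowest included a transporter, a ligase and an aminotransferase of hepatocytes. Slc2a2, the glucose transporter GLUT2, lay at 158 to 657 in TU sections, with a median of 206, against 1506 to 2256 in own liver, with a median of 1752 (log2 difference of -2.79 ± 0.22, adjusted p = 4.38e-06). Slc27a5, the ligase that joins bile acids to coenzyme A, ranged from 226 to 1191 (median 349) in TU sections and from 2014 to 3017 (median 2637) in own liver (log2 difference of -2.62 ± 0.21, adjusted p = 4.38e-06). Oat, ornithine aminotransferase of perivenous hepatocytes, had a median of 64.3 in TU sections (lowest 9.82, highest 174), against 463 in own liver (lowest 346, highest 855) (log2 difference of -2.67 ± 0.25, adjusted p = 1.07e-05). In all 3 genes the groups were apart, with the TU section of rat 4109 the closest to own liver.

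Car5a, a mitochondrial carbonic anhydrase, had a log2 difference of -2.96 ± 0.28, Spp2, a secreted phosphoprotein, one of -2.78 ± 0.28, Aspg, an asparaginase, one of -2.72 ± 0.23, and Cavin3, a caveolar coat protein, one of -2.68 ± 0.24. Avpr1a, the hepatic vasopressin receptor, had -2.65 ± 0.22, Olr59, annotated as an olfactory receptor, -2.49 ± 0.20, and Hsd3b5, a steroid dehydrogenase of male rat liver, -2.48 ± 0.26. Rat 4109 showed the smallest loss of each of these 7 genes.

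Upstream sequences of 2 of the most raised and the 2 most lowered genes are shown because the 24 genes differed in the number of CG pairs in front of their start sites. Each is the 250 bases before the annotated start in RefSeq, build GRCr8, on the strand of the gene, with CG pairs in capitals: Bex3 at chrX:104064646-104064895 (plus strand), Slc25a4 at chr16:52805271-52805520 (plus), Cyp1a2 at chr8:66978150-66978399 (minus) and Cyp2c7 at chr1:247966144-247966393 (plus).
Bex3: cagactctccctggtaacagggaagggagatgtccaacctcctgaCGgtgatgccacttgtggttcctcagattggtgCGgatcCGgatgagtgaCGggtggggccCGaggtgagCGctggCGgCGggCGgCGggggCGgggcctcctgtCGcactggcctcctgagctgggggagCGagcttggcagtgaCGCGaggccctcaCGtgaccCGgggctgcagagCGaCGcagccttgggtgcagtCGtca
Slc25a4: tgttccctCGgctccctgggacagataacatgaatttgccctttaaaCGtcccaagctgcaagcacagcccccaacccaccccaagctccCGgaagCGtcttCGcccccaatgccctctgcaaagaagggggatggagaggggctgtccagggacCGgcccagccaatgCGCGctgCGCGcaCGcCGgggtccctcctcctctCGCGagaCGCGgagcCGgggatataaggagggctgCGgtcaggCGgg
Cyp1a2: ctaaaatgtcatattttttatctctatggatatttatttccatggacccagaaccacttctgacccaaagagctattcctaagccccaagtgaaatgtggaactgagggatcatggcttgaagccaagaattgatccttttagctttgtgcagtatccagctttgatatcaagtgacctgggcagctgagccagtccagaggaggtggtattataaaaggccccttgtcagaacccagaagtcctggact
Cyp2c7: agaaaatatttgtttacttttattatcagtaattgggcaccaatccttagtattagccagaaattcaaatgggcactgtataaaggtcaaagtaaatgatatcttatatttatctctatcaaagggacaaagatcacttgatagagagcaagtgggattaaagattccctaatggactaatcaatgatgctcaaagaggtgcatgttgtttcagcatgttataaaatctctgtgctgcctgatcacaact

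These windows held 20 CG pairs for Bex3 and 19 for Slc25a4, and none for Cyp1a2 and Cyp2c7. The letters TATAAA, searched on the gene strand between 45 and 16 bases before the start, began 39 bases before the start of Cyp1a2 and 31 before that of Cyp2c7, and were not in this window of Bex3 and Slc25a4. Over the 12 highest genes the windows held 4 to 25 CG pairs (median 15). Over the 10 lowest genes with a match they held 0 to 16 (median 3). Mmp12, among the 12 highest, held 4 CG pairs and also had TATAAA, 39 bases before its start. Of the 10 lowest genes with a match only Cyp1a2 and Cyp2c7 had TATAAA. RefSeq promoters matched 801 of the genes that rose, 1044 of those that fell and 6482 of the 7737 tested. The median number of CG pairs was 17 in front of genes that rose, 14 in front of genes that fell and 17 over all tested genes. Windows with under 5 CG pairs made up 7.24% of those of genes that rose, 18.4% of those of genes that fell, 11.4% over all tested genes and 42.9% over all 27457 promoters of the table. TATAAA was found in 2.50% of the promoters of genes that rose, 3.07% of those of genes that fell, 1.77% over all tested genes and 1.79% over the whole table. A match describes letters in a window and was not tested against the expression values.

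**Figure D2:**
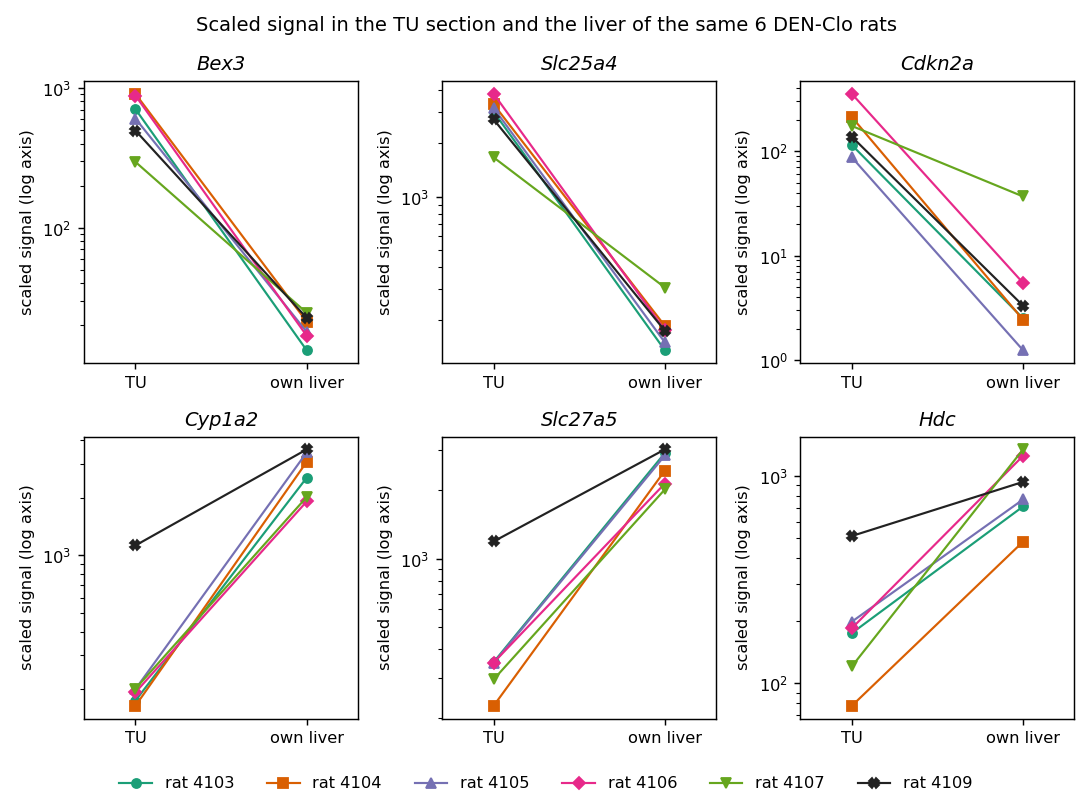
Scaled signal (log axis) of 6 genes in the TU section and the own liver of each of 6 DEN-Clo rats, joined by a line per rat. Bex3, Slc25a4 and Cdkn2a are higher and Cyp1a2, Slc27a5 and Hdc lower in the TU section of every rat; Cyp1a2 stays at 1125 in the TU section of rat 4109.

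Targets of the drug's receptor were mostly lower in TU sections than in own liver. Of 30 tested genes in the list of PPARalpha targets in lipid handling outside the oxidation pathways, 20 fell, 2 rose and 8 did not pass, and the list's median difference was -0.51, beside -0.02 over all 7737 genes. Hdc, histidine decarboxylase, which fibrates raise in rat liver, ranged from 77.8 to 513 (median 179) in TU sections and from 482 to 1343 (median 853) in own liver (log2 difference of -2.12 ± 0.23, adjusted p = 2.35e-05). The groups met in the TU section of rat 4109. Cyp4a1, a fatty acid omega-hydroxylase, lay at 874 to 5547 in TU sections, with a median of 1824, against 4983 to 8505 in own liver, with a median of 6071 (log2 difference of -1.74 ± 0.22, adjusted p = 7.03e-05). Acot1, a cytosolic acyl-CoA thioesterase, had a median of 58.4 in TU sections (lowest 9.32, highest 149), against 173 in own liver (lowest 60.1, highest 355) (log2 difference of -1.27 ± 0.15, adjusted p = 4.46e-05). The groups overlapped for both genes, and every rat had the lower value in its TU section.

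Vnn1, the pantetheinase induced by fibrates, fell by 0.93 on the log2 scale (adjusted p = 0.000294), and Cyp4a3, another omega-hydroxylase, had a log2 difference of -1.66, adjusted p = 4.05e-05. Cd36, a fatty acid transporter, had a log2 difference of -0.80, adjusted p = 0.00332. Cpt1b, the muscle isoform of carnitine palmitoyltransferase, fell by 0.46 (adjusted p = 0.0348), a call lost without rat 4103 (-0.40, adjusted p = 0.126), without rat 4104 (-0.43, adjusted p = 0.0973), without rat 4106 (-0.50, adjusted p = 0.0553) and without rat 4107 (-0.35, adjusted p = 0.0886). Fabp1, the liver fatty acid binding protein, had a median of 10230.2 in TU sections (lowest 7057, highest 17184), against 11755 in own liver (lowest 9819.9, highest 21904), and did not pass (log2 difference -0.28, adjusted p = 0.159), although it did without rat 4104 (-0.38, adjusted p = 0.0461). Gk (glycerol kinase, -1.73) and Angptl4 (an inhibitor of lipoprotein lipase, -0.92) also fell, and the 2 members that rose were Cyp4a8 (1.08) and Plin4 (a lipid droplet coat protein, 0.83); these 4 were picked after their values were seen. The Cyp4a genes are similar enough in sequence that their probe sets may share signal.

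Peroxisomal and mitochondrial oxidation fell in part. In the peroxisomal list 13 of 23 tested genes fell, none rose and 10 did not pass (median -0.50). In the mitochondrial fatty acid oxidation list 12 of 21 fell, none rose and 9 did not pass (median -0.45). The count of lowered genes was 7 without rat 4103 or 4104. Amacr, the racemase that prepares branched-chain fatty acids and bile acid intermediates for peroxisomes, ranged from 418 to 1609.5 (median 724) in TU sections and from 2760.3 to 4119 (median 3204) in own liver (log2 difference of -2.07 ± 0.20, adjusted p = 1.11e-05), and the groups were apart. Ehhadh, the bifunctional enzyme of peroxisomal beta-oxidation and a standard fibrate target, lay at 2808 to 8890.2 in TU sections, with a median of 3907, against 6330.1 to 11222 in own liver, with a median of 8080.2 (log2 difference of -0.88 ± 0.15, adjusted p = 0.00071), with the TU section of rat 4109 inside the range of own liver. Crat (carnitine acetyltransferase, -1.54), Cpt2 (carnitine palmitoyltransferase of the inner membrane, -1.34), Acot2 (a mitochondrial thioesterase, -1.30) and Eci1 (an enoyl-CoA isomerase, -0.90) fell in every rat. Crot, which moves shortened acyl groups out of peroxisomes, had a log2 difference of -0.96 and Pxmp2, a channel of the peroxisomal membrane, one of -0.87.

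Fatty acid and cholesterol synthesis went both ways. In the fatty acid synthesis and desaturation list 11 of 19 tested genes fell, 2 rose and 6 did not pass (median -0.48). The 2 that rose were Scd2, a stearoyl-CoA desaturase, and Fasn, fatty acid synthase. Scd2 ranged from 1801 to 3665 (median 2434) in TU sections and from 669 to 1666 (median 964) in own liver (log2 difference of 1.29 ± 0.19, adjusted p = 0.00023), with no overlap. Fasn lay at 591 to 1425 in TU sections, with a median of 1153, against 405 to 802 in own liver, with a median of 610.4 (log2 difference of 0.76 ± 0.19, adjusted p = 0.0082), and the TU section of rat 4106 alone was lower than its own liver. Another probe set of Fasn had a log2 difference of 0.34 with an adjusted p of 0.0659. Scd, the main desaturase of liver, Elovl5, an elongase, and Agpat2, an acyltransferase of phosphatidate synthesis, fell, with log2 differences of -0.81, -0.79 and -1.09. In the cholesterol synthesis list 4 of 18 genes rose and 6 fell (median 0.07). The count of raised genes was 2 without rat 4104 or 4106 and 2 with no scaling, and the median was -0.05 without rat 4109. Those that rose were Mvd (log2 difference 0.84, adjusted p = 0.0151), Fdps (log2 difference 0.62, adjusted p = 0.00781), Mvk (log2 difference 0.49, adjusted p = 0.00568) and Lss (log2 difference 0.38, adjusted p = 0.0187), enzymes of the mevalonate and squalene steps that were named after their values were seen. Insig2, which retains the sterol sensor in the endoplasmic reticulum, had a lowest, median and highest signal of 609.9, 1035 and 1421 in TU sections, against 2046, 2577 and 2915 in own liver (log2 difference of -1.32 ± 0.15, adjusted p = 3.99e-05). Sc5d, Pmvk and Fdft1 also fell, though another probe set of Fdft1 did not pass (-0.30, adjusted p = 0.0685).

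Bile acid genes had the largest share of lowered members among the 38 lists. Of 18 tested genes in the bile acid synthesis and transport list 16 fell, none rose and 2 did not pass (median -0.86, against -0.02 over all genes). Slco1b2, a basolateral uptake transporter, ranged from 351 to 1246 (median 692) in TU sections and from 2913 to 3610.2 (median 3053) in own liver (log2 difference of -2.11 ± 0.21, adjusted p = 1.27e-05). Slco1a4, another organic anion uptake transporter, lay at 552 to 1819 in TU sections, with a median of 690.0, against 3099.8 to 3991 in own liver, with a median of 3366 (log2 difference of -1.94 ± 0.20, adjusted p = 1.71e-05). The groups did not overlap for either transporter. Nr0b2, the repressor SHP that bile acids induce, had a log2 difference of -1.73, adjusted p = 3.09e-05, with the TU section of rat 4109 at 933 inside the range of own liver. The sodium-dependent uptake transporter Slc10a1 (-1.57), the canalicular export pump Abcb11 (-1.08) and Cyp7a1, the rate-limiting enzyme of bile acid synthesis (-0.79), also fell; these 3 were picked after their values were seen.

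Genes of amino acid breakdown fell more often than they rose. In the urea cycle and amino acid breakdown list 21 of 36 tested genes fell, 1 rose and 14 did not pass (median -0.58). Agxt, the peroxisomal alanine-glyoxylate aminotransferase, ranged from 196 to 1334 (median 377) in TU sections and from 1795 to 2712 (median 2305) in own liver (log2 difference of -2.39 ± 0.22, adjusted p = 1.06e-05). Kynu of tryptophan breakdown (-2.20), Prodh of proline breakdown (-1.81) and Sds, serine dehydratase (-2.09), fell as well. Glul, the glutamine synthetase of perivenous hepatocytes, had a median of 1504 in TU sections (lowest 939, highest 2052), against 2311 in own liver (lowest 1919, highest 3613) (log2 difference of -0.70 ± 0.15, adjusted p = 0.00325), and the groups overlapped. The gene that rose was Bcat2 (0.85), a branched-chain aminotransferase, named after its value was seen. In the list of the amino acid and unfolded protein responses 6 of 30 genes rose, 6 fell and 18 did not pass (median 0.04). Raised genes numbered 3 without rat 4105 or 4106 and 12 with quantile normalization, and the median was -0.07 without rat 4106 and -0.04 without rat 4109. Phgdh, the first enzyme of serine synthesis, lay at 457 to 943 in TU sections, with a median of 717, against 292 to 433 in own liver, with a median of 323 (log2 difference of 0.99 ± 0.17, adjusted p = 0.000755). Sdf2l1 and Creld2, which assist protein folding in the endoplasmic reticulum, rose by 1.35 and 1.16, each without overlap. Trib3, a pseudokinase of the stress response, fell by 1.28, and its TU section of rat 4107 was the lowest at 52.5. Atf3, a stress-induced transcription factor picked after its value was seen, rose by 1.29 ± 0.31. Its signals of 16.4 to 150 in TU sections overlapped 3.18 to 26.0 in own liver. The livers of the group mates lay at 2.46 to 116, with a median of 46.4.

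Genes that depend on growth hormone and sex had the lowest median of the lists. Of 24 tested, 16 fell, 2 rose and 6 did not pass (median -1.02). Cyp2c11, the male-specific cytochrome P450 of rat liver, ranged from 497 to 3054 (median 1289.7) in TU sections and from 4044 to 7570.2 (median 6283) in own liver (log2 difference of -2.31 ± 0.23, adjusted p = 1.65e-05). Cyp2c12, its female-typical relative, lay at 129 to 804 in TU sections, with a median of 433, against 43.4 to 98.6 in own liver, with a median of 68.9 (log2 difference of 2.10 ± 0.24, adjusted p = 3.62e-05) and was picked after its value was seen. Sult2a6, a female-typical hydroxysteroid sulfotransferase in rats, had a median of 933 in TU sections (lowest 571, highest 1141), against 311 in own liver (lowest 178, highest 357) (log2 difference of 1.58 ± 0.15, adjusted p = 1.06e-05). TU sections and own liver did not overlap for any of the 3 genes, whose families hold near-identical members. Obp3, the male rat's alpha-2u globulin, ranged from 16.1 to 89.0 (median 51.0) in TU sections and from 94.7 to 1269 (median 321) in own liver (log2 difference of -2.27 ± 0.33, adjusted p = 0.000189), with the lowest own liver in rat 4109 and the highest in rat 4104. The growth hormone receptor Ghr, picked after its value was seen, lay at 261 to 734 in TU sections, with a median of 276, against 1177 to 1382 in own liver, with a median of 1238 (log2 difference of -1.77 ± 0.19, adjusted p = 2.39e-05). Its targets Igf1 (-0.82) and Igfals, which binds IGF in the circulation (-1.74), fell. In the list of the IGF axis and growth factors 7 of 18 genes fell and none rose (median -0.35). The genes that rose numbered 1 without rat 4109 and 1 with quantile normalization. Egfr, the epidermal growth factor receptor, had a median of 241 in TU sections (lowest 165, highest 333), against 661 in own liver (lowest 566, highest 764) (log2 difference of -1.33 ± 0.13, adjusted p = 1.1e-05), with no overlap.

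Drug metabolism was broadly lower. In the cytochrome P450 list 16 of 20 tested genes fell, 1 rose and 3 did not pass (median -0.80). Cyp3a23-3a1 ranged from 259 to 1928 (median 664) in TU sections and from 3360.4 to 4001 (median 3455) in own liver (log2 difference of -2.21 ± 0.25, adjusted p = 3.34e-05). Cyp2a1 (-1.85) and Cyp2d4 (-1.27) fell, both without overlap. The gene that rose was Cyp17a1, the steroid 17-hydroxylase, which lay at 818 to 2372 in TU sections, with a median of 1457, against 127 to 640.0 in own liver, with a median of 372 (log2 difference of 1.92 ± 0.22, adjusted p = 3.91e-05). Por, the electron donor of microsomal cytochromes P450, was picked after its value was seen and fell by 1.35. In the phase II and NRF2-type list 20 of 46 genes fell, 3 rose and 23 did not pass (median -0.35). The number that rose was 1 without rat 4103, 4104 or 4106, 1 with no scaling and 5 with quantile normalization. The glutathione S-transferases Gstm7 (-1.65) and Gsta4 (-1.38) and the sulfotransferase Sult1c3 (-1.39) fell without overlap. Gpx1, a glutathione peroxidase, fell by 1.25, and Gstm3, picked after its value was seen, rose by 1.25 ± 0.23.

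Glucose genes differed by step. In the gluconeogenesis and glycogen list 8 of 15 tested genes fell, 2 rose and 5 did not pass (median -0.61). Fbp1, fructose-1,6-bisphosphatase, ranged from 1895 to 7584 (median 2988) in TU sections and from 6354 to 12377 (median 6792) in own liver (log2 difference of -1.27 ± 0.16, adjusted p = 8.52e-05), and the groups met through rat 4109. Pck2, the mitochondrial phosphoenolpyruvate carboxykinase, lay at 228 to 703 in TU sections, with a median of 435, against 74.5 to 192 in own liver, with a median of 182 (log2 difference of 1.32 ± 0.19, adjusted p = 0.000183), and G6pc3, the widely expressed glucose-6-phosphatase, rose by 0.87 ± 0.13; neither overlapped. In the glycolysis list 2 of 17 genes rose, 1 fell and 14 did not pass (median 0.06). The count of raised genes was 1 without rat 4103, 4104, 4105 or 4106, 4 without rat 4107, 0 with no scaling and 6 with quantile normalization. With all rats they were Pfkm, the muscle phosphofructokinase (0.54, adjusted p = 0.00222), and Pgam1, a phosphoglycerate mutase (0.39, adjusted p = 0.0384). The call of Pgam1 was lost without rat 4103 (0.40, adjusted p = 0.101), without rat 4104 (0.31, adjusted p = 0.122), without rat 4105 (0.42, adjusted p = 0.052) and without rat 4106 (0.37, adjusted p = 0.109). The gene that fell was Slc2a2, and the number that fell was 3 without rat 4105 and 2 without rat 4109.

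Ribosomal protein genes were raised as a group by small steps. Of 31 tested, 16 rose, none fell and 15 did not pass (median 0.45). Raised genes numbered 26 without rat 4107 and 31 with quantile normalization. Rplp0, of the ribosomal stalk, ranged from 4919.6 to 7736 (median 6599) in TU sections and from 2897 to 4164 (median 3054) in own liver (log2 difference of 0.97 ± 0.14, adjusted p = 0.000161). Rpl14, Rpl13a and Rps3 rose by 0.98, 0.84 and 0.74, each without overlap, though another probe set of Rpl14 did not pass (0.41, adjusted p = 0.0888). In the respiratory chain list 4 of 50 genes fell, none rose and 46 did not pass (median 0.00). The genes that rose numbered 4 without rat 4107 and 12 with quantile normalization, and the number that fell was 2 without rat 4103, 4105 or 4106, 2 with no scaling and 2 with quantile normalization. In the proteasome list 1 of 30 rose and 1 fell, and these were the immunoproteasome subunits Psmb10 (1.12, adjusted p = 5.5e-05) and Psmb8 (-1.22, adjusted p = 0.000266). The number of proteasome genes that rose was 3 without rat 4107 and 6 with quantile normalization, and the median of -0.05 became 0.06 without rat 4107 and 0.09 with quantile normalization.

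**Figure D3:**
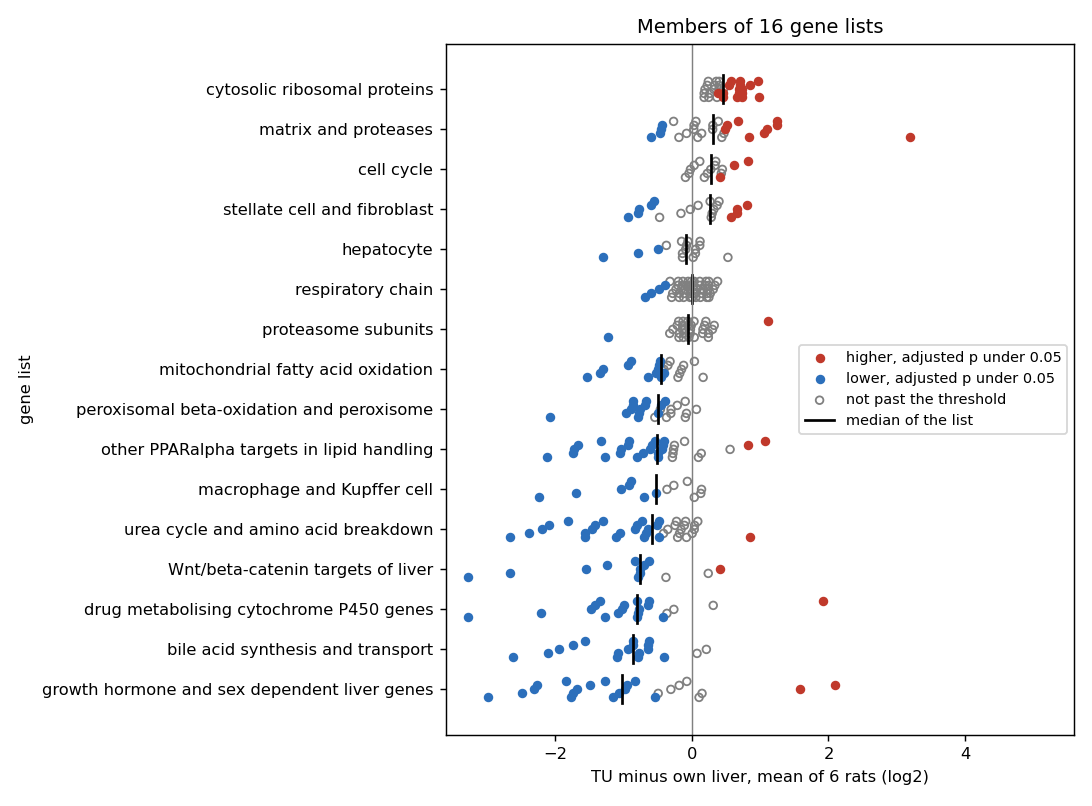
Mean log2 difference (TU minus own liver, 6 rats) of each tested member of 16 gene lists, with genes past an adjusted p of 0.05 filled and the list's median as a black bar. Medians run from 0.45 for cytosolic ribosomal proteins to -1.02 for growth hormone and sex dependent genes, beside -0.02 over all 7737 genes.

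Markers of zonation were lower for both ends of the liver lobule. In the list of Wnt/beta-catenin targets of liver, which mark perivenous hepatocytes, 10 of 13 tested genes fell, 1 rose and 2 did not pass (median -0.76). In the periportal list 8 of 12 fell, none rose and 4 did not pass (median -0.82). Besides Cyp1a2, Oat and Glul, the Wnt list held Slc13a3, a dicarboxylate transporter, and Cyp2e1, which fell (-1.55 and -0.79). Axin2, the feedback inhibitor of the pathway, was picked after its value was seen and had a median of 48.9 in TU sections (lowest 32.2, highest 58.7), against 104 in own liver (lowest 70.6, highest 135) (log2 difference of -0.83 ± 0.16, adjusted p = 0.00174). Ccnd1 was the member that rose, and the number that rose was 0 without rat 4104, 4106 or 4109 and 0 with no scaling. Hal, the periportal histidine ammonia-lyase, ranged from 126 to 564 (median 215) in TU sections and from 678 to 918 (median 864) in own liver (log2 difference of -1.56 ± 0.22, adjusted p = 0.000148), and Cyp2f4 fell as well (-0.99). Neither Axin2 nor Hal overlapped between the groups.

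Of the nuclear receptors and hepatocyte transcription factors 16 of 29 tested genes fell, none rose and 13 did not pass (median -0.41). Lowered genes numbered 10 without rat 4103, 9 without rat 4104 and 7 with no scaling. Onecut1, the factor HNF6, lay at 22.5 to 115 in TU sections, with a median of 57.7, against 89.5 to 824 in own liver, with a median of 238 (log2 difference of -1.68 ± 0.20, adjusted p = 4.05e-05), with every TU section below its own liver although the groups overlapped. Nr1h4, the bile acid receptor FXR, and Nr1i3, the receptor CAR, fell (-1.09 and -0.76). Hnf4a, a master regulator of hepatocyte genes, fell by 0.49 (adjusted p = 0.0305), a call lost without rat 4103 (-0.54, adjusted p = 0.054), without rat 4104 (-0.50, adjusted p = 0.0684), without rat 4106 (-0.46, adjusted p = 0.0926) and without rat 4107 (-0.34, adjusted p = 0.062).

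Among secreted liver proteins, coagulation and complement genes fell in 8 of 19 tested, with none raised (median -0.20), and apolipoproteins and lipoprotein enzymes in 5 of 14, with none raised (median -0.14). The number of apolipoprotein genes that rose was 1 without rat 4105 or 4107, 1 with no scaling and 1 with quantile normalization. Pros1, protein S, ranged from 443 to 919 (median 665) in TU sections and from 1633 to 2218 (median 1774) in own liver (log2 difference of -1.41 ± 0.15, adjusted p = 2.46e-05). C1r, the complement protease, Mbl2, the mannose-binding lectin, and Apom, an apolipoprotein of high density lipoprotein, fell (-1.32, -1.03 and -1.55), none with overlap. Apoa4, an apolipoprotein that this drug lowers in rat liver, had a median of 255 in TU sections (lowest 159, highest 461), against 351 in own liver (lowest 215, highest 574) and did not pass (log2 difference -0.34, adjusted p = 0.312). In the acute phase list 3 of 19 fell, 2 rose and 14 did not pass (median -0.02, but 0.02 without rat 4105 and 0.01 without rat 4109). A2m, the rat's main inducible acute phase inhibitor, lay at 215 to 1322 in TU sections, with a median of 300.1, against 79.8 to 126 in own liver, with a median of 106 (log2 difference of 1.89 ± 0.29, adjusted p = 0.000294), and the highest TU signals were those of rats 4103 and 4105. The other acute phase gene that rose was Lbp, the endotoxin-binding protein (log2 difference 0.97, adjusted p = 0.000325), named after its value was seen. Apcs (-1.60), Crp (-1.29) and Itih4 (-1.08) fell. Alb, albumin, ranged from 14142 to 25957 (median 16928) in TU sections and from 11481 to 34753 (median 13834) in own liver, and did not pass (log2 difference 0.12, adjusted p = 0.617).

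Among classical tumour markers, Gstp1, Ggt1 and Afp did not pass the test. In the list of rat liver tumour markers 3 of 13 tested genes rose, none fell and 10 did not pass (median 0.20), beside 12% raised and 16.5% lowered over all genes. The number that fell was 1 without rat 4104 or 4109 and 1 with no scaling. Gstp1 ranged from 71.2 to 315 (median 211) in TU sections and from 143 to 448 (median 319) in own liver. Its log2 difference of -0.63 did not pass (adjusted p = 0.0524), was positive in rat 4104 alone, and passed without rat 4104 (-0.86, adjusted p = 0.0104). Ggt1 lay at 70.7 to 249 in TU sections, with a median of 115, against 85.0 to 148 in own liver, with a median of 98.6 (log2 difference 0.21, adjusted p = 0.489), and Afp, alpha-fetoprotein, had a median of 396 in TU sections (lowest 273, highest 436), against 386 in own liver (lowest 233, highest 443) (log2 difference -0.01, adjusted p = 0.96). The groups overlapped for all 3 markers. Gpc3 was also looked for but was left out by the signal filter, with mean signals of 24.4 in TU sections and 8.66 in own liver. Tff3, a trefoil peptide of mucosae, ranged from 182 to 464 (median 315) in TU sections and from 80.0 to 145 (median 132) in own liver (log2 difference of 1.13 ± 0.19, adjusted p = 0.000581), with no overlap. Cd24, a progenitor cell surface protein, rose by 1.10, a call lost without rat 4106 (0.74, adjusted p = 0.0613). H19, an imprinted fetal RNA, rose by 0.67, a call lost without rat 4103 (0.45, adjusted p = 0.0907) and without rat 4104 (0.56, adjusted p = 0.0829).

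Mcm7, Ccnd1 and Cdc20 were the cell cycle genes that rose. Of 15 tested among 35 listed, 3 rose, none fell and 12 did not pass (median 0.28), beside 12% raised over all genes. The number that rose was 1 without rat 4104, 4106 or 4109 and 1 with no scaling. The proliferation markers Mki67 and Top2a were left out by the signal filter and not tested. Mean signals of Mki67 were 25.8 in TU sections and 22.7 in own liver. Those of the 2 Top2a probe sets were 44.3 and 28.7 in TU sections, against 22.9 and 26.1 in own liver. Mcm7, of the replicative helicase, lay at 167 to 269.7 in TU sections, with a median of 258, against 94.1 to 154 in own liver, with a median of 124 (log2 difference of 0.82 ± 0.11, adjusted p = 0.000131), with no overlap. Ccnd1, cyclin D1, had a log2 difference of 0.41, adjusted p = 0.0276, a call lost without rat 4104 (0.31, adjusted p = 0.111), without rat 4106 (0.44, adjusted p = 0.0551) and without rat 4109 (0.41, adjusted p = 0.0502). Cdc20, of the anaphase-promoting complex, had a log2 difference of 0.62, adjusted p = 0.0338, a call lost without rat 4104 (0.61, adjusted p = 0.08), without rat 4105 (0.41, adjusted p = 0.0864), without rat 4106 (0.65, adjusted p = 0.0691) and without rat 4109 (0.58, adjusted p = 0.0685). Of the cell cycle inhibitors and p53 targets 4 of 12 rose and 2 fell (median 0.21). The count of lowered genes was 0 without rat 4103, 4104 or 4106, 1 without rat 4105, 4107 or 4109, 0 with no scaling and 1 with quantile normalization. Beside Cdkn2a, the DNA repair gene Mgmt (0.85, adjusted p = 0.00125) and the p53 target Ccng1 (0.59, adjusted p = 0.00405) rose without overlap. Cdkn2c rose by 0.42, a call lost without rat 4103 (0.42, adjusted p = 0.0709), without rat 4104 (0.44, adjusted p = 0.0532), without rat 4105 (0.36, adjusted p = 0.0704), without rat 4107 (0.38, adjusted p = 0.0661) and without rat 4109 (0.39, adjusted p = 0.0605). Cdkn1c (log2 difference -0.66, adjusted p = 0.0348) and Cdkn1b (log2 difference -0.58, adjusted p = 0.0415), named after their values were seen, were those that fell. In TU sections the medians of Mgmt, Ccng1 and Ccnd1 were 417, 274 and 259, against 502, 321 and 355 in DEN livers. Against DEN livers 2 of these 12 inhibitor and p53 genes were higher and 5 lower. In the cell cycle list 4 of 15 were higher than in DEN livers and none lower. Over all 7888 genes of that comparison 19.5% were higher and 27.2% lower.

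Matrix genes and proteases rose more often than they fell. Of 26 tested, 9 rose, 4 fell and 13 did not pass (median 0.31). Lowered genes numbered 1 without rat 4103 or 4105, 2 without rat 4106, 4107 or 4109, 2 with no scaling and 2 with quantile normalization. Beside Mmp12, Lgals3, galectin 3, ranged from 736 to 1437 (median 1099) in TU sections and from 268 to 735 (median 439.5) in own liver (log2 difference of 1.25 ± 0.13, adjusted p = 2.12e-05). Anxa2, a calcium-dependent membrane protein, rose by 1.24 and Lgals1, galectin 1, by 1.06, both without overlap. In the interferon and antigen presentation list 9 of 25 genes fell, 3 rose and 13 did not pass (median -0.22). The count of raised genes was 1 without rat 4103 or 4109 and 1 with no scaling, and the number that fell was 4 with no scaling. Usp18, an interferon-induced protease, lay at 125 to 175.97 in TU sections, with a median of 149.6, against 286 to 376 in own liver, with a median of 310.5 (adjusted p = 6.49e-05), and Irf9 fell as well (-0.56), each without overlap.

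Markers of the other liver cell types moved in different directions. The summed signal of 13 macrophage markers was 3614 to 5876 in TU sections, against 6216 to 8258 in own liver, and 7 of 13 tested fell with none raised (median -0.52). Clec4f, the Kupffer cell lectin, ranged from 32.5 to 515 (median 160.3) in TU sections and from 665 to 1187 (median 794) in own liver (log2 difference of -2.24 ± 0.24, adjusted p = 2.11e-05), and Cd14 lay at 126 to 230.3 in TU sections, with a median of 149, against 491 to 732 in own liver, with a median of 532 (log2 difference of -1.69 ± 0.14, adjusted p = 5.52e-06). The sum of 13 endothelial markers was 1724 to 2340 in TU sections, against 2868 to 3884 in own liver. Of 10 endothelial genes tested 5 fell and none rose (median -0.24), among them Kdr (-1.56), the sinusoidal receptor Lyve1 (-1.39), Fcgr2b (-1.15) and Stab1 (-0.86). None of the endothelial or macrophage genes named here overlapped between the groups. They are the list members with the smallest p, a choice that favours groups that lie apart. The share without overlap over all genes was not counted.

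Stellate cell and fibroblast markers had sums of 3244 to 4008 in TU sections and 3248 to 3683 in own liver, with 4 of 19 raised and 5 lowered (median 0.27). The number that fell was 2 without rat 4103 or 4106 and 3 without rat 4104. Col1a2 (0.81), Acta2 (0.67) and Col4a1 (0.65) rose, while Bgn, a small proteoglycan, had a log2 difference of -0.79, adjusted p = 0.00177 and Lrat, the retinol esterifying enzyme of quiescent stellate cells, -0.93, adjusted p = 0.00882, the last picked after its value was seen. All 5 tested genes of the B lymphocyte list rose (median 0.66), but each of them encodes an antigen-presenting class II molecule or its invariant chain, not a product of B cells alone. Cd74, the invariant chain, ranged from 1259.6 to 1732 (median 1449.6) in TU sections and from 695 to 1258 (median 888) in own liver (log2 difference of 0.69 ± 0.15, adjusted p = 0.00326), and RT1-Da rose by 0.66 without overlap. The class II genes RT1-Bb (0.57), RT1-Db1 (0.49) and RT1-Ba (0.69) overlapped between groups, and RT1-Ba lost its call without rat 4106 (0.61, adjusted p = 0.0543). RT1-Ba was picked after its value was seen. Without scaling 2 of the 5 passed, and other probe sets of RT1-Db1 (0.43, adjusted p = 0.14) and RT1-Ba (0.15, adjusted p = 0.65) did not pass.

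The 9 tested cholangiocyte and progenitor cell genes gave 2 that rose, Cd24 and Sctr. The number was 1 without rat 4103 or 4104 and 0 without rat 4106. The sum of the 13 markers on the array was 1683 to 2207 in TU sections, against 1553 to 1636 in own liver. Sctr, the secretin receptor of bile ducts, had a log2 difference of 0.80, adjusted p = 0.0362, a call lost without rat 4103 (0.62, adjusted p = 0.156), without rat 4104 (0.75, adjusted p = 0.116), without rat 4106 (0.72, adjusted p = 0.124) and without rat 4107 (0.78, adjusted p = 0.0782). Among T and NK cell genes 2 of 10 fell and none rose, a share close to the 16.5% lowered over all genes. The count of lowered genes was 1 without rat 4104, 4106, 4107 or 4109 and 1 with no scaling. Ccl5, a chemokine, lay at 46.6 to 225 in TU sections, with a median of 117, against 233 to 489.7 in own liver, with a median of 307 (log2 difference of -1.33 ± 0.14, adjusted p = 2.12e-05), and Prf1, perforin, had a log2 difference of -0.66, adjusted p = 0.0251, a call lost without rat 4106 (-0.69, adjusted p = 0.0539). Of 3 erythroid genes tested Hbb (-0.76) and Alas2 (-0.68) fell. Of 3 pancreatic acinar genes Cela1 rose (0.75, adjusted p = 0.000915), and neither Cpb1 nor Cela2a passed. Neither neutrophil and mast cell gene tested passed. Among 16 tested hepatocyte markers 3 fell, none rose and 13 did not pass (median -0.08). Raised genes numbered 1 without rat 4105 or 4107, 1 with no scaling and 1 with quantile normalization. Their summed signal of 109550 to 190132 in TU sections overlapped 109004 to 228484 in own liver. The part of these marker differences in the other results was not tested. The ratio of 3' to 5' actin signal, a measure of RNA quality, was 1.02 to 1.43 in TU sections, against 1.06 to 1.69 in own liver. That of gapdh was 1.04 to 1.47 in TU sections, against 1.22 to 1.40 in own liver. That of hexokinase was 0.311 to 1.57 in TU sections, against 0.482 to 10.3 in own liver, and was lower in the TU section of 5 of 6 rats. The part of RNA quality in the results was not tested.

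The TU sections of 12 months were compared with those of 9 months in the same fit. No gene differed in its change from own liver between the times, with 0 of 7737 genes (0%) past the threshold in either direction and 306 of 10576 probe sets at an unadjusted p under 0.05 in limma. With 3 rats a time, and the B suffix on sections of 9 months alone, suffix and time cannot be told apart. Weighting the arrays by quality gave 1 probe set.

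Own livers of the 6 rats were also set against the livers of the 4 group mates without a TU section here. Limma called 0 of 7526 genes (0%), and 258 of 10245 probe sets had an unadjusted p under 0.05. Hdc had a signal of 482 to 1343 (median 853) in own liver and 495 to 1312 (median 827) in these mates. Scd2 had 669 to 1666 (median 964) in own liver and 1065 to 1942 (median 1365) in these mates. Own livers and mates overlapped for both genes.

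The 2 PERI sections, a tag the labels do not spell out, came from rats 4104 and 4109 and allow no test. Slc25a4 had a signal of 363 and 151 in the PERI sections of rats 4104 and 4109, and Bex3 of 117 and 19.3, so that the PERI section of rat 4104 lay above all own livers for both genes and that of rat 4109 within their range.

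The same difference was measured in 8 Clo rats, which had the drug without DEN. Limma found 0 of 8232 genes (0%) whose difference from own liver differed between DEN-Clo and Clo rats, with 1687 of 11389 probe sets at an unadjusted p under 0.05. Without rat 4137 the count was 0 of 11366 probe sets, with 1518 of them at an unadjusted p under 0.05 in limma. Both 1687 and 1518 exceed the share of 0.05 that no difference would give. The absence of calls thus does not show that the arms are alike. Times differ between the arms. Here each mean over rats is given ± the SD between rats. Slc25a4 had a mean log2 difference of 3.80 ± 0.73 (SD) in the 6 DEN-Clo rats, against 2.18 in the 8 Clo rats and 3.12 ± 1.55 (SD) in the 7 without rat 4137, and the difference between arms was 0.68 without that rat (95% interval -0.44 to 1.79, adjusted p = 0.603) and 1.62 with it (adjusted p = 0.473). Mmp12 had 3.19 ± 0.62 (SD) in the 6 DEN-Clo rats, against 2.60 in the 8 Clo rats and 3.51 ± 0.61 (SD) in the 7 without rat 4137, a difference of -0.32 without that rat (95% interval -0.91 to 0.26, adjusted p = 0.65) and 0.59 with it (adjusted p = 0.793). The Clo rat 4150 had a difference of 0.12 for Slc25a4 and of 4.003 for Mmp12.

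Other genes lay further apart between the arms without passing. Bex3 had 3.84 ± 0.67 (SD) in the 6 DEN-Clo rats, against 1.92 in the 8 Clo rats and 2.74 ± 0.94 (SD) in the 7 without rat 4137, a difference of 1.10 without that rat (95% interval 0.34 to 1.86, adjusted p = 0.231) and 1.92 with it (adjusted p = 0.309). Obp3 had -2.27 ± 1.27 (SD) in the 6 DEN-Clo rats, against -0.01 in the 8 Clo rats and -0.32 ± 0.46 (SD) in the 7 without rat 4137, a difference of -1.95 without that rat (95% interval -2.82 to -1.08, adjusted p = 0.147) and -2.26 with it (adjusted p = 0.22). Nr0b2 had -1.73 ± 0.64 (SD) in the 6 DEN-Clo rats, against -0.00 in the 8 Clo rats and -0.19 ± 0.72 (SD) in the 7 without rat 4137, a difference of -1.55 without that rat (95% interval -2.19 to -0.90, adjusted p = 0.147) and -1.73 with it (adjusted p = 0.22). The intervals of these 3 genes without rat 4137 excluded 0, but their adjusted p-values did not pass. Slc25a4, Mmp12, Bex3 and Nr0b2 were named by their values in the DEN-Clo rats, that is, on the DEN-Clo arm alone. Such a choice can widen the distance between the arms, and its part in these differences was not tested. Of 13 drug targets chosen from those named above, 3 had an interval without rat 4137 that excluded 0. The other 10 had one that held it, and none passed after adjustment. Cyp4a8, Plin4, Gk and Angptl4 among the 13 were picked after their values were seen. Of the oxidation genes outside this set, Crat, Cpt2, Acot2, Eci1, Crot and Pxmp2 had intervals that held 0 and Amacr one that excluded it. Over all probe sets 1518 of 11366 had an unadjusted p under 0.05 without rat 4137. The difference of Gk was -1.45 without that rat (95% interval -2.28 to -0.63, adjusted p = 0.16) and -1.72 with it (adjusted p = 0.22). That of Vnn1 was -0.51 without that rat (95% interval -0.93 to -0.09, adjusted p = 0.295) and -0.67 with it (adjusted p = 0.252). That of Cd36 was -0.45 without that rat (95% interval -0.90 to -0.01, adjusted p = 0.362) and -0.56 with it (adjusted p = 0.286). Among targets whose interval held 0, Acot1 had -1.27 ± 0.36 (SD) in the 6 DEN-Clo rats, against -0.86 in the 8 Clo rats and -1.24 ± 0.79 (SD) in the 7 without rat 4137, a difference of -0.03 without that rat (95% interval -0.63 to 0.58, adjusted p = 0.984) and -0.41 with it (adjusted p = 0.707). The difference of Ehhadh was -0.00 without that rat (95% interval -0.40 to 0.39, adjusted p = 0.996) and -0.18 with it (adjusted p = 0.769). Cyp2c12, picked after its value was seen, differed by -0.08 without that rat (95% interval -0.87 to 0.70, adjusted p = 0.948) and 0.44 with it (adjusted p = 0.775).

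**Figure D4:**
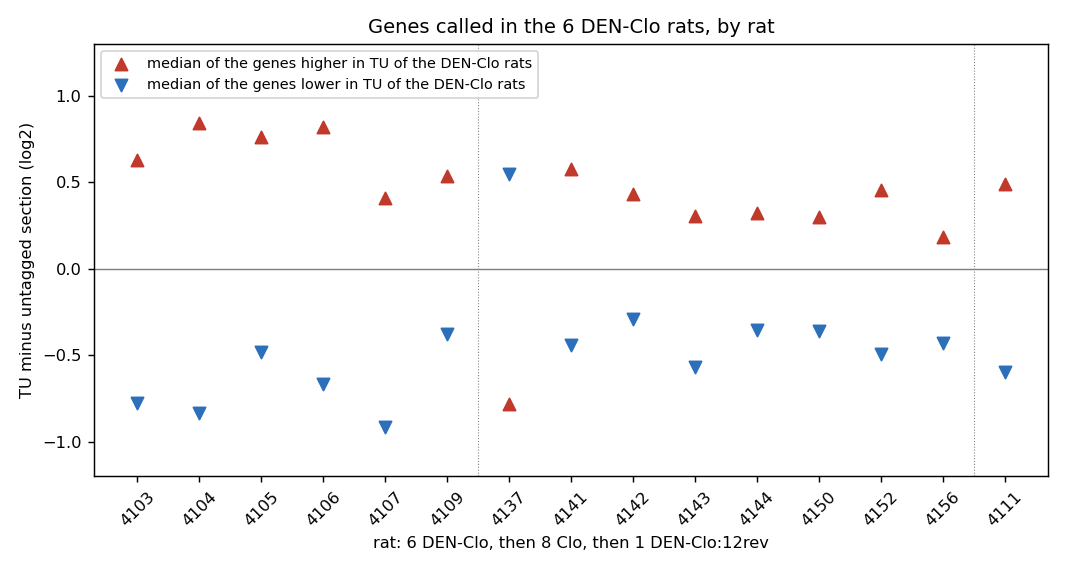
Median TU minus untagged difference (log2) of the 932 genes that rose and the 1277 that fell in the 6 DEN-Clo rats, in each of these rats, in 8 Clo rats and in the rat of DEN-Clo:12rev. The first 6 rats are those on which the genes were called. The other 7 Clo rats and rat 4111 have raised genes above and lowered genes below 0, and rat 4137 has the reverse.

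TU sections were also set against livers of DEN rats without the drug. Limma, with time as a covariate, called 1537 of 7888 genes higher (19.5%) and 2142 lower (27.2%). This fit is unpaired and has 10 DEN livers, so its counts are not set against those from own liver. Drug and TU tag are both in this comparison and cannot be told apart by it, and it shares the TU sections with the comparison above. Scd2 had the largest gain (5.49 ± 0.15, adjusted p = 9.9e-17), with signals of 1801 to 3665 (median 2434) in TU sections, against 15.7 to 57.4 (median 31.9) in DEN livers. Slc25a4 (4.20), Phgdh (4.13), Bex3 (4.04), Cela1 (3.81) and Mmp12 (3.44) followed. Obp3 had the largest loss (-5.79 ± 0.16, adjusted p = 9.9e-17), with 16.1 to 89.0 (median 51.0) in TU sections, against 2617 to 5874 (median 4619) in DEN livers. Oat (-4.77), Apoa4 (-4.32), Slc27a5 (-4.09), Cyp3a9 (-3.89) and Aspg (-3.88) followed. None of the signals of Scd2 or Obp3 overlapped between TU sections and DEN livers.

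Drug targets that were lower in TU sections than in own liver were not all back at the level of DEN livers. Of 29 tested genes in the list of other PPARalpha targets 9 were higher in TU sections than in DEN livers. Of the rest 13 were lower and 7 did not pass, beside 19.5% higher and 27.2% lower over all genes. Hdc lay at 77.8 to 513 (median 179) in TU sections, 482 to 1343 (median 853) in own liver and 33.3 to 168 (median 68.1) in DEN livers (TU minus DEN liver 1.09 ± 0.26, adjusted p = 0.0015). Vnn1 lay at 389 to 755 (median 545) in TU sections, 655 to 1432 (median 1115) in own liver and 70.1 to 274 (median 143) in DEN livers (1.83 ± 0.19, adjusted p = 1.34e-07). Both were thus between own liver and DEN liver at the median. Acot1 (1.00), Cpt1b (1.34) and Ehhadh (0.78) were also above DEN livers. Cyp4a1 lay at 874 to 5547 (median 1824) in TU sections, 4983 to 8505 (median 6071) in own liver and 2294 to 3767 (median 3177) in DEN livers (-0.77 ± 0.24, adjusted p = 0.0129), and so was lower in TU sections than in both. Cyp4a3 (-2.11) and Angptl4 (-2.14) were below DEN livers as well, as was Cyp4a8 (-2.33), which was higher in TU sections than in own liver. For these genes own liver was itself below DEN livers at the median. The medians were 4257 against 6060 for Cyp4a3, 309 against 755 for Angptl4 and 49.7 against 815 for Cyp4a8. Own and DEN livers were apart for Angptl4 and Cyp4a8 and overlapped for Cyp4a3.

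Apoa4 and Scd2 were among the genes with large differences against DEN livers that own liver already carried. Apoa4 lay at 159 to 461 (median 255) in TU sections and 215 to 574 (median 351) in own liver, against 4883 to 7449 (median 5989.8) in DEN livers and 4253 to 8376 (median 5762) in Ctrl livers. Own liver had Scd2 signals of 669 to 1666 (median 964), against 17.2 to 403 (median 30.6) in Ctrl livers. Slc25a4, in contrast, lay at 136 to 307 (median 175.64) in own liver, against 104 to 173 (median 134) in DEN livers and 75.4 to 114 (median 108) in Ctrl livers. Own and DEN livers overlapped for Slc25a4 and were apart for Apoa4 and Scd2. They were also apart for Phgdh (medians 323 in own liver and 15.3 in DEN livers), Cela1 (885 and 111) and Obp3 (321 and 4619). The same held for Oat (463 and 2361), Slc27a5 (2637 and 7036) and Cyp3a9 (161 and 1187). For Bex3, Mmp12 and Aspg they overlapped. Epcam, a surface protein of progenitor and bile duct cells, had a log2 difference of 0.33, adjusted p = 0.107 against own liver, passed without rat 4107 (0.43, adjusted p = 0.0379), and of 1.40 ± 0.11, adjusted p = 1.75e-09 against DEN livers. In ribosomal protein genes 24 of 31 were higher than in DEN livers and none lower (median 0.57), beside 19.5% higher over all genes.

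**Figure D5:**
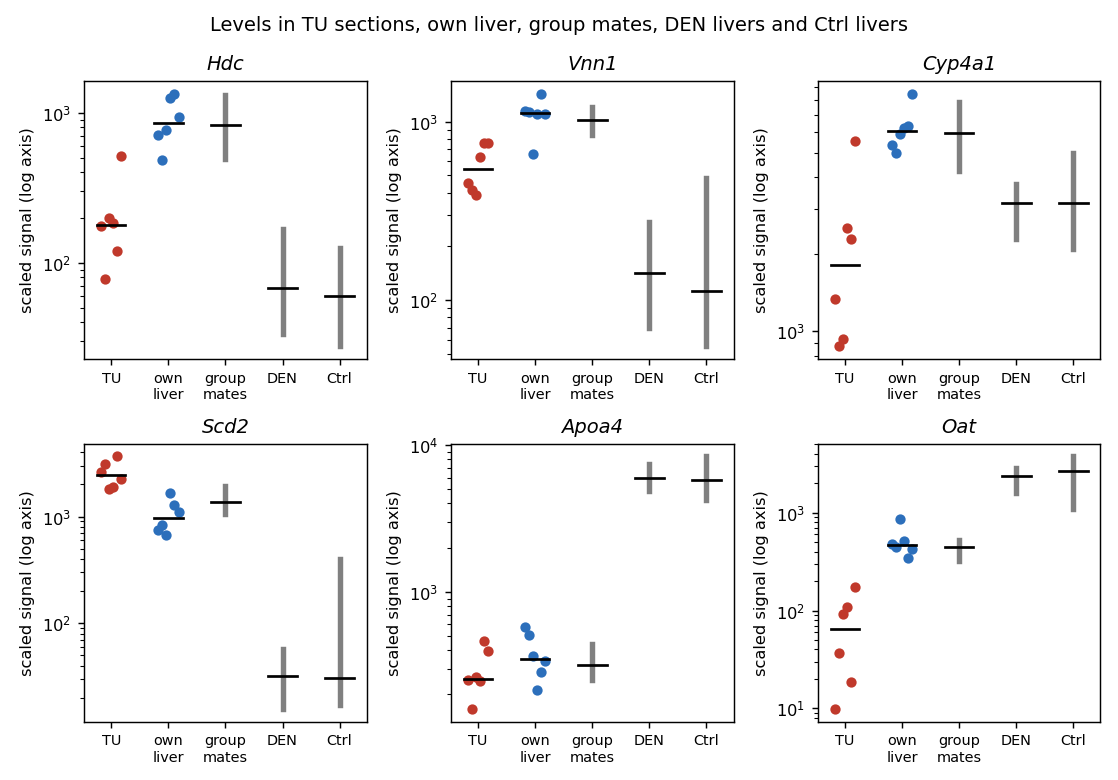
Scaled signal (log axis) of 6 genes in TU sections and own liver of 6 DEN-Clo rats (points, with the median as a bar), and the lowest to highest (grey) and median (bar) signal of 4 group mates, 10 DEN livers and 10 Ctrl livers. Hdc and Vnn1 lie between own liver and DEN livers in TU sections, Cyp4a1 and Oat lie at or below both at the median, Scd2 is highest in TU sections, and Apoa4 is low in all 3 DEN-Clo groups.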

How the data were processed

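RNA of each liver section was measured on 1 Affymetrix rat array. The authors deposited 1 intensity per probe set and array (15922 probe sets), a linear MAS5 signal per the submitters' processing notes, with no version given, and further steps are not given in the sources used here. The deposited intensity values were not on 1 scale, with array medians of 25.35 to 187.25.

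Each array was multiplied to a common median of 99.35, 25 was added and log2 was taken. In each fit a probe set was kept if it exceeded its own array's 40th percentile on at least 3 arrays, and 56 control probe sets were left out. Gene names came from the supplied platform annotation, updated through Entrez numbers: 12783 probe sets had 1 gene, 312 several and 2827 none. The probe set with the highest mean stood for its gene. TU and own liver were compared with limma 3.58.1 in R 4.3.3, with a term for each rat, eBayes with a trend and Benjamini-Hochberg adjustment over all kept probe sets, a call being an adjusted p under 0.05. That fit had 5 residual degrees of freedom and a prior of 9.02. All adjusted p-values printed come from limma. An exact sign permutation over 6 rats cannot go below 0.03125. The script was tested on simulated data.

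Same-numbered sections come from the same animal, and so are paired. Their deviations from the group means correlated at -0.07 to 0.26 over the rats. P-values measure the spread between these sections, 1 TU section a rat.

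Genes named are the 12 highest and 12 lowest differences of 1 sign in 6 of 6 rats, a panel, up to 4 members of each of 38 lists with the smallest p, and the 6 highest and 6 lowest genes of the other comparisons. Further genes were picked or named after their values were seen, as marked. The members and lists were chosen with earlier results of these data known. Some genes stand in several lists. Alternatives were the offset, scaling, filter, array weights, a 2-fold limit, leaving out each rat, the rat term and the B suffix.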

Additional observations from a re-analysis of the deposited data

Results flagged for a closer look

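Within the 6 rats the gap between the most extreme difference and its nearest neighbour was tested for each named gene by Dixon's ratio at its 95% critical value. Of 185 genes 12 had 1 rat apart from the other 5, and chance gives about 1 in 20. In 8 of the 12 that rat was 4109. The differences below are TU minus own liver on the log2 scale.

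Rat 4109 had the smallest loss of 7 genes. Its difference was -1.64 for Cyp1a2, against -4.03 to -3.15 in the other rats. Car5a had -0.84 in rat 4109, against -3.62 to -2.85. Slc2a2 had -1.31, against -3.26 to -2.57. Spp2 had -0.69, against -3.53 to -2.91. Aspg had -1.10, against -3.49 to -2.69. Cavin3 had -1.01, against -3.42 to -2.72. Kynu had -0.83, against -2.72 to -2.15. For RT1-Bb, a class II antigen chain, rat 4109 had the largest gain, 0.88, against 0.44 to 0.60. Its array medians before scaling, 51.3 for the TU section and 45 for own liver, were the lowest of the 12, and the part of depth in these values was not tested.

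Rat 4107 stood apart for 3 genes. Its gain of Slc25a4 was 2.35, against 3.79 to 4.25 in the other rats. Trib3 had -2.89, against -1.39 to -0.58. Ndufb6, a subunit of respiratory complex I, had -1.44, against -0.57 to -0.16. Rat 4106 was the only rat with a lower Fasn signal in the TU section, with -0.42, against 0.81 to 1.33.

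Apoa4 was higher in the TU section of every rat at 12 months and lower in that of every rat at 9 months. The difference between the times was 1.39 (adjusted p = 0.921 in limma) and did not pass.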

How the results depend on the processing

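For TU against own liver, 2937 probe sets passed. With no scaling 1720 passed (624 higher, 1096 lower), with a 2-fold limit 512, within the 2 rats with the B suffix on both sections 1466 and within the 3 rats without it 670, the last 2 with fewer samples. Quantile normalization gave 3225, with 1605 higher and 1620 lower (49.8% higher, against 39.6%), and moved the median of all genes to 0.03, against -0.02. Leaving out 1 rat gave 2076 to 2944. The fit without the replicate block gave 2818, and on it the calls of Ccnd1, Cdc20, Ndufb6, Hnf4a and Sctr were lost. Without rats 4107 and 4109, a setting chosen after seeing the data, 2978 passed. For TU against DEN liver, 4926 passed, with no scaling 3104 (1250 higher, 1854 lower), with a 2-fold limit 944, and leaving out 1 rat 4417 to 4951. The difference between 12 and 9 months had 1 call with array weights, and DEN-Clo against Clo had 7 with no scaling. The causes were not tested. Of 4021 settings of single named genes, 3732 kept their side of the threshold, 38 gained a call, 251 lost it and 0 changed direction. Folds of dim genes depend on the offset. The number of arrays limits the precision.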
